A study of Homo sapiens with 54 samples.

Results

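The comparison described here sets H4 cells transfected with miR-107 against H4 cells transfected with M1, an altered form of miR-107, in RNA of the total lysate. H4 is a human brain tumour line that the labels call glioneuronal. The arrays were chosen by their titles alone, which gave 3 miR-107 lysates and 3 M1 lysates, 6 of the 54 arrays of the series. The labels name the M1 molecule miR-107-mut1 and describe it as a miRNA-like molecule, and a second altered form, miR-107-mut2, is called M2. All cells were transfected with 1 small RNA and harvested 48 hours later, so that both groups carried a transfected RNA and no group was left untransfected. The series holds 9 transfections in all, each as 3 total lysates and 3 anti-Argonaute immunoprecipitates (IPs). Beside miR-107 and M1, 3 lysate groups are used below: M2, the negative control RNA (Ambion) and the family member miR-103. The labels call the samples of a group biological replicates. A p-value sets a difference against the spread between replicates, pooled over all groups of the fit and not over the compared groups alone.

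MicroRNAs are short RNAs that guide Argonaute proteins to messenger RNAs, mainly by pairing of the seed near their 5′ end. Bound messages are translated less and often degraded, so messages of direct targets tend to fall, and further genes change as a consequence. The group of related miRNAs to which miR-107, miR-103, miR-15, miR-16 and miR-195 belong, shares part of the seed and is best known for restraining the cell cycle. An altered version of a miRNA is commonly used to separate effects of its sequence from effects of transfecting any small RNA.

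The mature miR-107 is shown because it is the molecule compared, and the mature miR-103a because the lysates of miR-103 and the control, compared below, share no array with those of miR-107 and M1. The capitals mark the seed, bases 2 to 8 counted from the 5′ end, in the RefSeq sequences on GRCh38.p14.
hsa-miR-107: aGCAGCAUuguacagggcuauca
hsa-miR-103a-3p: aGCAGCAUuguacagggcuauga
The 23 bases of miR-107 lie at chr10:89592756-89592778 on the minus strand. Those of miR-103a lie at chr5:168560904-168560926 on the minus strand and at chr20:3917541-3917563 on the plus strand. The sequences share the whole seed and have 1 difference, C22G, with miR-107's base first and the position counted from its 5′ end. The sequence of the M1 molecule was not used here.

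Each array gave 1 summarised log2 value per probe set, and 11050 genes passed the filter on low values. Replicates correlated at 0.988 to 0.994 among the miR-107 lysates and at 0.977 to 0.988 among the M1 lysates. Of all 27 lysates, 3 stood apart from their own replicates (highest correlation under 0.95), and all 3 belonged to groups other than those compared first (miR-103, miR-15b* and miR-16, replicate 2 of each). Their spread still entered every lysate test. Without them limma called 1449 genes higher and 1257 lower with miR-107 than with M1 at an adjusted p under 0.05, against 769 and 719. Of 16 astrocyte and glial progenitor markers, 10 passed the filter, among them VIM, CD44, SOX2 and SOX9. The mean level of this list ranged from 7.81 to 7.94 in the miR-107 lysates and from 7.66 to 7.83 with M1. List means given here cover every member with a probe set, also those below the filter. GFAP, the astrocyte filament, averaged 6.75 and 6.62, while S100B and AQP4 lay below the filter. Of 20 neuronal markers 11 passed, and NEFM, DCX and STMN2 were below the filter. The mean level of that list was 7.11 to 7.13 with miR-107 and 7.20 to 7.30 with M1. Markers of blood cells and microglia (3 of 15 passed) and of epithelium and endothelium (4 of 12) were mostly low, with PTPRC, EPCAM and PECAM1 below the filter. Of 10 oligodendrocyte markers 6 passed. The mean level of that list, 7.18 to 7.23 with miR-107 and 7.10 to 7.32 with M1, was close to that of the neuronal list. The blood, epithelial and oligodendrocyte lists had no called member (limma, Benjamini-Hochberg adjusted p under 0.05) and none at an unadjusted p under 0.05.

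Total RNA of cells given miR-107 and of cells given M1 differed widely. Of the 11050 genes, 1488 (13.5%) were called, 769 higher with miR-107 (6.96%) and 719 lower (6.51%), by limma's moderated test with Benjamini-Hochberg adjustment over all genes at an adjusted p under 0.05. At an unadjusted p under 0.05 there were 2548. The numbers of higher and lower calls were close, and which was larger changed with the settings, yet the lower ones reached further. The median called fall was -0.72 and the median called rise 0.63 on the log2 scale, and 212 genes were lower by 1 or more against 132 higher. At 2 or more the counts were 39 lower and 6 higher. In 716 of the 719 lower and 766 of the 769 higher genes the 3 values of one group all lay outside those of the other. Over all genes tested, without regard to calls, 17.3% lay entirely lower with miR-107 and 20.0% entirely higher. The median difference over all genes was 0.01. The counts depended on single arrays: without M1 replicate 3, 490 genes were called higher. In a lysate of a whole culture, fewer cells of a type and less RNA per cell cannot be told apart.

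The 15 largest falls were mainly genes of the dividing cell. ASF1B, a chaperone that hands histones to newly made DNA, fell the most. Its levels were 8.09, 8.24 and 8.03 with miR-107 and 11.21, 11.50 and 11.53 with M1. The groups were far apart, and the negative control lysates (11.18, 11.43 and 11.42) lay with M1. The difference was -3.29 ± 0.22 (SE, n = 3 per group; limma adjusted p = 2e-09), a 9.81-fold lower level. PHF19, a Polycomb-associated protein that binds methylated histone H3, stood at 7.73, 7.38 and 7.69 with miR-107 and at 10.63, 10.83 and 10.92 with M1. Here too the groups did not overlap, and the difference was -3.19 ± 0.22 (limma adjusted p = 2.3e-09).

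TK1, the thymidine kinase of S phase, was at 8.50, 8.41 and 8.46 with miR-107 and 11.21, 11.35 and 11.37 with M1, a difference of -2.85 ± 0.20. PLK1, a kinase that drives entry into and passage through mitosis, was at 9.56, 9.53 and 9.52 against 12.44, 12.24 and 12.48, also -2.85. In both genes the miR-107 values lay closer together than the M1 values. CCNB1 and CCNA2, the cyclins B1 and A2 that activate the mitotic and S-phase kinases, differed by -2.41 ± 0.16 and -2.33 ± 0.23. For CCNA2, replicate 1 of miR-107 (7.92) lay below the other 2 (8.63 and 8.66), and M1 (10.63, 10.66 and 10.92) remained far above all of them.

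The other large falls belonged to the same processes or to none of them. KIF18B (-2.68), a kinesin of the mitotic spindle, SPAG5 (-2.41), a spindle protein, and CDCA8 (-2.44), a subunit of the chromosomal passenger complex, act in mitosis. CDCA5 (-2.32, sororin) holds sister chromatids together, and OIP5 (-2.28) helps to load the centromeric histone. DTL (-2.60) is an adaptor of the ubiquitin ligase that removes replication licensing factors in S phase, and H1-5 (-2.58) is a linker histone. The homeobox gene DLX2 (-2.31) and FAIM2 (-2.26), an inhibitor of Fas-mediated death, are not cell cycle genes, and their pattern against the control differed, as described further on. The highest adjusted p among the 15 was 3.6e-06 (limma), and every one of them was called in all 15 alternative settings tried.

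**Figure D1:**
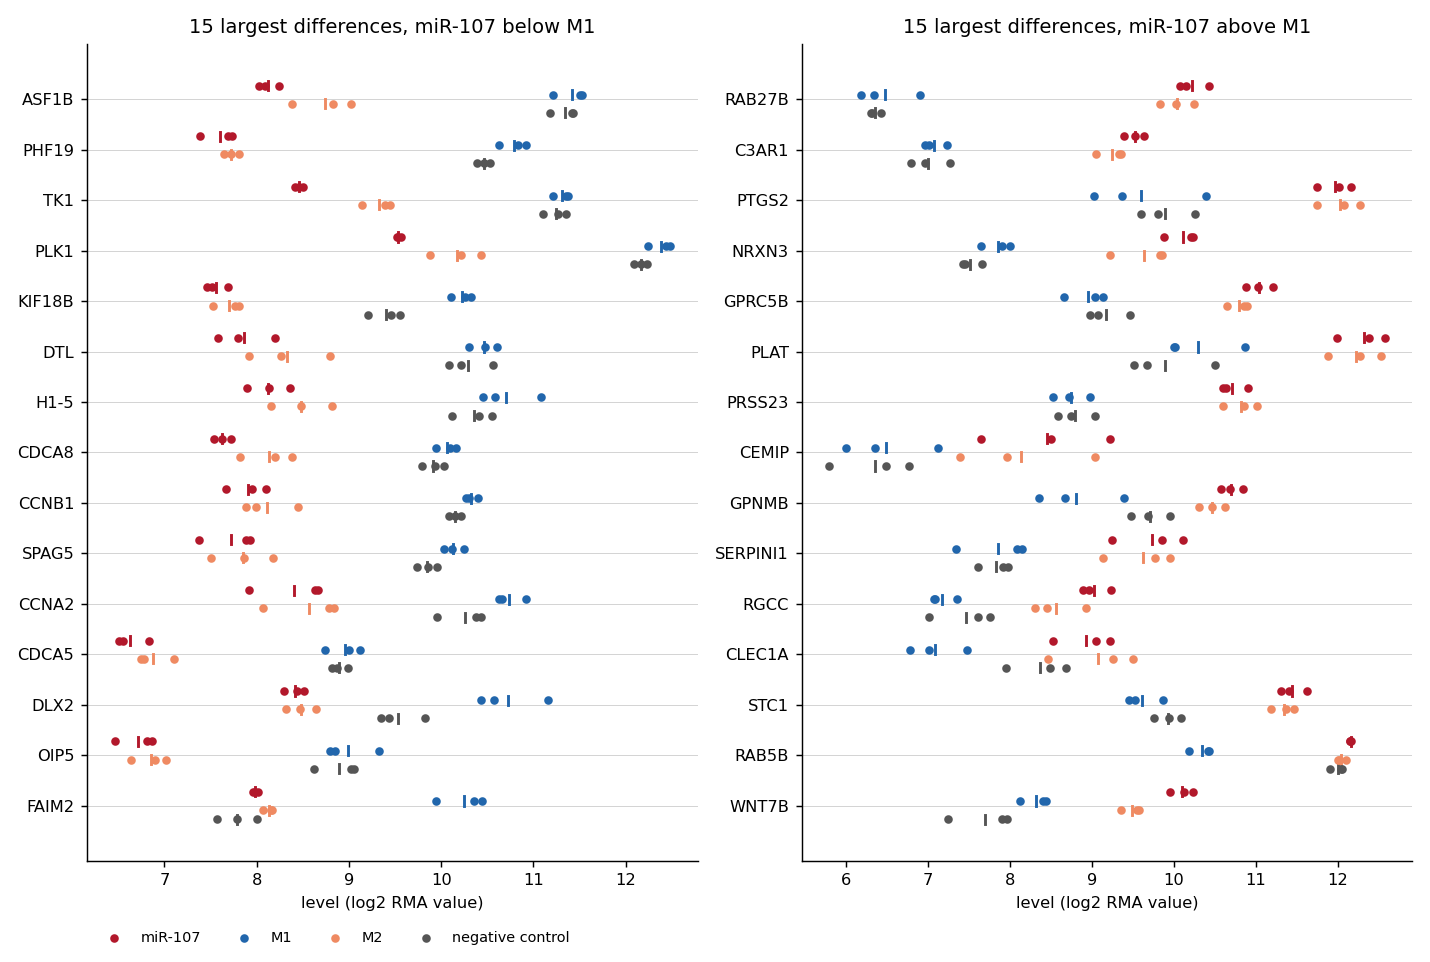
Levels (log2 RMA value, horizontal axis) of the 15 genes with the largest falls (left) and the 15 with the largest rises (right) in miR-107 against M1; each point is 1 lysate, each short bar a group mean, for miR-107, M1, M2 and the negative control. The M2 mean lay nearer to miR-107 than to M1 in every gene, and the control mean lay nearer to miR-107 for FAIM2, RAB5B, CLEC1A and, by little, DLX2, and nearer to M1 in the other genes plotted.

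Genes of DNA replication were lower as a group. Members of this list and of the lists below were chosen with earlier results of these data known. Of 33 members all had a probe set and 25 passed the filter, and all 25 were called lower, none higher. Over all genes tested 6.51% were called lower and 6.96% higher. The median difference was -1.46, against 0.01 over all genes, and the range ran from -3.29 to -0.45. With no filter on low values all 33 were called lower. The replicative helicase subunits MCM2 (-1.15 ± 0.19), MCM3 (-1.46), MCM4 (-1.61), MCM5 (-1.97 ± 0.24) and MCM7 (-1.94 ± 0.14) were among them. So were its partners CDC45 (-2.0), GINS1 (-2.07) and GINS2 (-2.07), and the loader of the helicase CDT1 (-1.46). PCNA, the sliding clamp that holds the polymerases on DNA, averaged 8.64 ± 0.08 (SD) with miR-107 and 9.87 ± 0.25 with M1. RFC3, a subunit of the complex that loads the clamp, averaged 7.11 ± 0.38 and 9.30 ± 0.19. The smallest differences were those of GINS3 (-0.45) and the ligase LIG1 (-0.55). The GINS3 call was lost without miR-107 replicate 2 or M1 replicate 2, and the LIG1 call without any one of the 6 arrays except M1 replicate 1.

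Mitotic genes showed larger falls still. Of 32 members 31 had a probe set and 20 passed the filter. All 20 were called lower, against 6.51% of all genes, and their differences ran from -2.85 to -1.52 with a median of -2.06. With no filter 31 of 31 were called lower. The kinases AURKA (-1.73 ± 0.17) and AURKB (-2.06 ± 0.26), the spindle checkpoint kinase BUB1 (-2.22 ± 0.39) and its relative BUB1B (-1.92) were lower. TOP2A, the topoisomerase that untangles chromosomes, averaged 7.67 ± 0.18 (SD) with miR-107 and 9.93 ± 0.21 with M1. BIRC5 (survivin, -1.86), the separase ESPL1 (-1.86) and its inhibitor PTTG1 (securin, -1.52) were lower by similar amounts. The median of these genes was -1.86 for miR-107 and 0.20 for M1 when each was set against the negative control, comparisons that share the control arrays.

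Replication-dependent histone genes, transcribed in S phase to package new DNA, were also lower. Of 49 members 44 had a probe set, 30 passed the filter and 27 were called lower (90.0%, against 6.51% of all genes), with a median of -1.24. With no filter 31 of 44 were called lower. The largest fall among core histones was that of H3C12 at -2.19 ± 0.24, and the smallest called fall that of H4C3 at -0.43 ± 0.10. H4C3 had a high level in both groups, 13.40 ± 0.06 (SD) against 13.83 ± 0.09. H3C7 averaged 11.72 ± 0.05 with miR-107 and 13.65 ± 0.16 with M1. Many of these genes are near-identical copies whose probes can bind messages of several members, so their values are not separate measurements.

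Other cell cycle lists moved in part. Their counts are to be read against the 6.51% of all genes tested called lower and the 6.96% called higher. Of 27 regulators of the step from G1 to S, 22 passed the filter and 9 were called lower, none higher, with a median of -0.19. They were the cyclin-dependent kinases CDK2 (-1.03), CDK4 (-0.48) and CDK6 (-1.63), cyclin D3 (CCND3, -1.18), E2F1 (-1.08), E2F2 (-0.68), E2F7 (-0.94), E2F8 (-2.0) and the mitosis inhibitor WEE1 (-0.78). The CDK4 call was lost without miR-107 replicate 2. Of 14 nucleotide synthesis genes tested, 5 were lower, namely TK1, thymidylate synthase (TYMS, -1.85 ± 0.19), both ribonucleotide reductase subunits RRM1 (-1.51) and RRM2 (-1.67), and DTYMK (-0.61). ATIC, an enzyme of purine synthesis, was higher by 0.40 ± 0.10. The call for DTYMK was lost without any one of the 6 arrays. Of 21 DNA damage genes 5 passed the filter and 2 were lower, RAD54L (-1.79) and UNG (-0.63), while 4 were called with the replicate block or with only the arrays compared. With no filter 10 of 16 were lower. Of 15 Polycomb genes tested 4 were lower, PHF19, the histone methyltransferase EZH2 (-1.57 ± 0.37), PHF1 (-0.52) and CBX7 (-0.42). The Polycomb count was 2 without miR-107 replicate 2, miR-107 replicate 3 or M1 replicate 2.

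**Figure D2:**
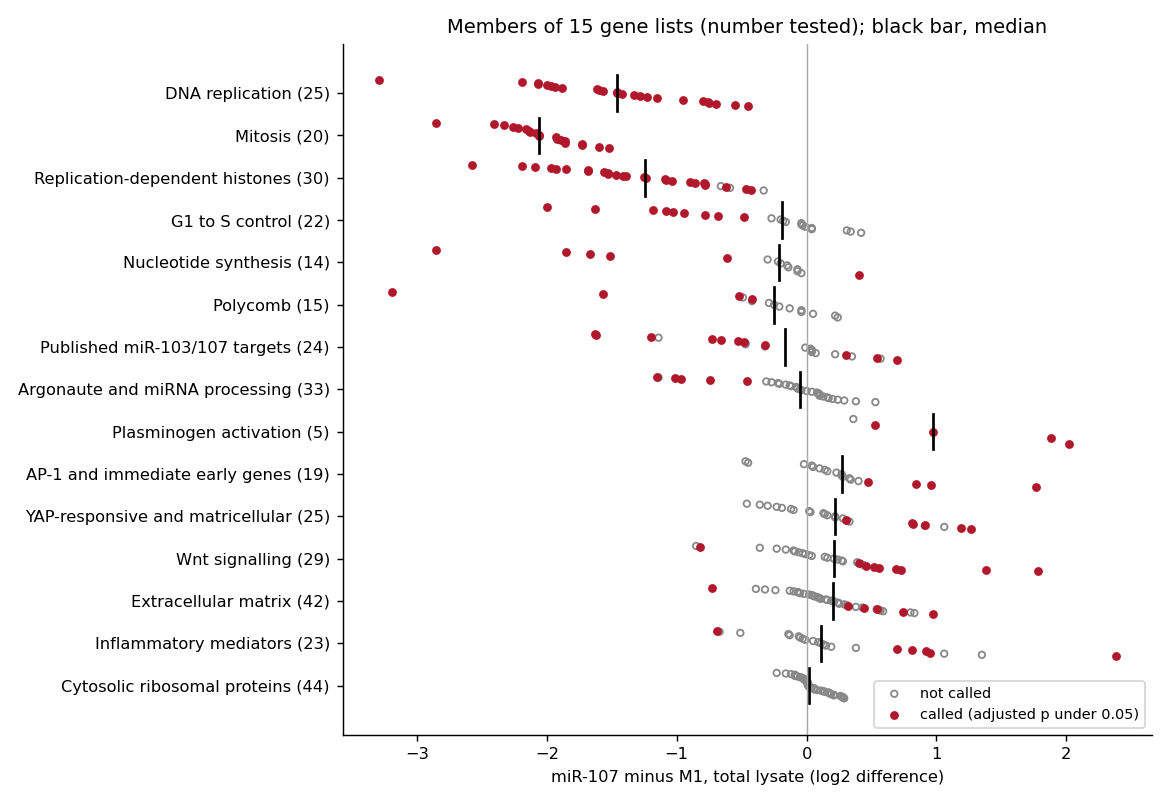
Log2 differences of miR-107 minus M1 (horizontal axis) for the tested members of 15 gene lists; each point is a gene, filled when called at an adjusted p under 0.05, and the black bar is the list median. All 25 replication genes and all 20 mitotic genes lay below 0, and the 44 ribosomal protein genes lay between -0.23 and 0.29.

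Since these genes moved together, their promoters were searched for motifs of the known regulators of cell cycle genes, in RefSeq windows of 300 bases (250 before to 50 after the start) on GRCh38.p14. The motifs were TTTGAA (the cell cycle homology region), CCAAT (the NF-Y box) and TTTCCCGC or TTTGGCGC (E2F sites), each on both strands. Of all 35116 promoters, 15.2% held TTTGAA, 34.6% CCAAT and 2.27% an E2F site, and of the 12797 promoters of tested genes 9.56%, 33.5% and 3.15% did. In 22 promoters of 17 of the 20 mitotic genes the shares were 50% for TTTGAA, 77.3% for CCAAT and 4.55% for E2F sites. In 28 promoters of 22 of the 25 replication genes they were 3.57%, 57.1% and 32.1%. In 27 promoters of 26 of the 30 histone genes 33.3% held TTTGAA and 85.2% held CCAAT. Of these promoters 70.4% held CCAAT at least 2 times (11.9% of promoters of tested genes), and 0% held an E2F site. The 16 promoters of 14 of the 15 genes with the largest falls held TTTGAA in 37.5%, CCAAT in 81.2% (at least 2 times in 43.8%) and E2F sites in 25.0%. The 16 promoters of 11 of the 15 genes with the largest rises held TTTGAA in 12.5%, CCAAT in 18.8% (at least 2 times in 18.8%) and E2F sites in 0%. Some of the largest falls are also members of these lists, so the shares are not separate. A match is a description of the letters and not a bound site.

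The 150 bases before the start are shown for the gene that fell the most and for 2 mitotic genes, with TTTGAA and the NF-Y box in capitals. The box reads ATTGG where it lies on the reverse strand.
ASF1B: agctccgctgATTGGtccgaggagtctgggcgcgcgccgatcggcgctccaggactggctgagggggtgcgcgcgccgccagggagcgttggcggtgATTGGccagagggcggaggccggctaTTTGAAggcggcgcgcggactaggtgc
PLK1: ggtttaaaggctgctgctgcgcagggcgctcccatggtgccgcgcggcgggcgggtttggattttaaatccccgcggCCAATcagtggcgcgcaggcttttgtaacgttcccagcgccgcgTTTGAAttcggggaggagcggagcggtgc
CDCA8: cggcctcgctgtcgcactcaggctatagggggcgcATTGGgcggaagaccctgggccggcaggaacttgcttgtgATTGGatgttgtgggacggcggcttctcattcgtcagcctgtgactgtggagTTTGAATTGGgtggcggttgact
They lie at chr19:14136590-14136739 (ASF1B, minus strand), chr16:23678739-23678888 (PLK1, plus strand) and chr1:37692366-37692515 (CDCA8, plus strand). The 3 genes were chosen because their stretch holds both motifs, and TTTGAA begins 23 to 29 bases before the start. CDCA5, also among the largest falls, holds neither TTTGAA nor CCAAT in its 150 bases, but an E2F site (TTTCCCGC) begins 45 bases before the start. The similar letters TTCGAA, not counted above, begin 26 bases before it. Of the mitotic promoters 50% lack TTTGAA in the full window. In CDCA8 it overlaps a reverse CCAAT, so that those letters count for both motifs.

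The rises were fewer at large size and belonged to mixed functions. RAB27B, a small GTPase that docks secretory vesicles and exosome-forming compartments at the membrane, rose the most. Its levels were 10.08, 10.43 and 10.15 with miR-107 and 6.18, 6.90 and 6.34 with M1, and the control lysates (6.31, 6.43 and 6.32) lay with M1. The difference was 3.74 ± 0.27 (SE; limma adjusted p = 3.4e-09), 13.4-fold, the largest of any gene tested. C3AR1, the receptor of complement fragment C3a, was at 9.64, 9.53 and 9.39 against 7.23, 7.01 and 6.97, higher by 2.45 ± 0.20. In both genes the lowest miR-107 lysate was above the highest M1 lysate by more than the range of either group.

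PTGS2, the inducible cyclooxygenase that makes prostaglandins, was at 12.16, 12.01 and 11.74 with miR-107 and at 10.39, 9.02 and 9.37 with M1, higher by 2.38 ± 0.28. PLAT, tissue plasminogen activator, was at 12.57, 12.38 and 11.99 against 10.87 for M1 replicate 1 and at most 10.01 for the other two M1 lysates, higher by 2.02 ± 0.28. In both genes replicate 1 was the highest of each group, and the groups still did not overlap. Same-numbered miR-107 and M1 lysates deviated together over all genes, as given in the processing notes. CEMIP, which takes part in hyaluronan breakdown, also had replicate 1 highest in both groups, with a wider spread of 9.22, 8.50 and 7.65 against 7.12, 6.0 and 6.35, a difference of 1.97 ± 0.45 (limma adjusted p = 0.0039).

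The remaining large rises lay between 1.78 and 2.26. NRXN3 (2.26 ± 0.25) is a presynaptic adhesion protein, GPRC5B (2.09 ± 0.16) an orphan receptor, PRSS23 (1.97) a secreted protease, and GPNMB (1.90) a glycoprotein of lysosomes and melanosomes. RGCC (1.85) is a regulator of the cell cycle that responds to complement, CLEC1A (1.85) a lectin-like receptor, STC1 (1.83 ± 0.19) the secreted hormone stanniocalcin, and WNT7B (1.78 ± 0.27) a Wnt ligand. SERPINI1 (neuroserpin, an inhibitor of tissue plasminogen activator) was at 9.86, 9.24 and 10.11 against 8.15, 7.34 and 8.09, higher by 1.88 ± 0.56 (limma adjusted p = 0.025). Its call was lost without miR-107 replicate 1, miR-107 replicate 3, M1 replicate 2 or M1 replicate 3, and the other 14 rises were called in all 15 alternative settings.

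The counts of the lists that follow stand beside the 6.96% of all genes called higher and the 6.51% called lower. Of 8 plasminogen genes 5 passed the filter and 4 were called higher, with a median of 0.97: PLAT, SERPINI1, the urokinase PLAU (0.97 ± 0.19) and the protease inhibitor SERPINE2 (0.53 ± 0.12). PLAU averaged 12.36 ± 0.18 (SD) with miR-107 and 11.39 ± 0.25 with M1. Against the negative control it was higher by 1.98 with miR-107 and by 1.01 with M1. Of 29 Wnt pathway genes tested 8 were higher and 1 lower, with a median of 0.21, and 5 were higher without miR-107 replicate 2 and 2 lower without M1 replicate 1. The co-receptor LRP5 was higher by 1.38 ± 0.21, the receptors FZD1 and FZD4 by 0.56 and 0.69, and the ubiquitin ligase RNF43, which removes Wnt receptors, was lower by 0.82 (-0.82 ± 0.17). The inhibitor NKD1 was higher by 0.73.

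Of 25 YAP-responsive and matricellular genes tested 6 were called higher and none lower, with a median of 0.22. They were CCN2 (connective tissue growth factor, 1.27 ± 0.30), FSTL1 (1.19 ± 0.15), THBS1 (thrombospondin, 0.91), FJX1 (0.82), FOXF2 (0.81) and LATS2 (0.30). With the replicate block 2 members were called lower. The FJX1 and LATS2 calls were each lost on leaving out any of 5 of the 6 arrays. Of 19 AP-1 and immediate early genes tested 4 were higher, with a median of 0.27. JUN, a subunit of AP-1, averaged 11.01 ± 0.19 (SD) with miR-107 and 9.24 ± 0.44 with M1, higher by 1.77 ± 0.22 (limma adjusted p = 5.9e-06). The phosphatases DUSP1 (0.84) and DUSP6 (0.96), which damp MAP kinases, and IER3 (0.47) were the others. The count was 2 without M1 replicate 3.

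Of 23 inflammatory mediators tested 5 were higher, PTGS2, the chemokine CXCL14 (0.95 ± 0.15), the cytokines LIF (0.92) and IL32 (0.70) and the NF-kB inhibitor TNFAIP3 (0.81), and IL11 was lower (-0.69). The higher count was 3 without miR-107 replicate 2, M1 replicate 2 or M1 replicate 3, and the IL11 call was lost without any one miR-107 array or M1 replicate 1. CXCL14 was higher than the control by 3.28 with miR-107 and by 2.33 with M1. Of 42 extracellular matrix genes tested 5 were higher (11.9%, against 6.96% of all genes) and 1 lower (2.38%, against 6.51%), with a median of 0.20. With the replicate block 13 were higher and 2 lower, and with only the arrays compared 8 and 2. COL4A1, a chain of basement membrane collagen, was higher by 0.97 ± 0.21, the protease MMP14 by 0.54 ± 0.12, the cross-linking enzyme LOX by 0.74, NID2 by 0.44 and SPARC by 0.32. The proteoglycan BGN was lower (-0.73 ± 0.15). The matrix count was 3 higher without miR-107 replicate 1 or M1 replicate 2, and 2 lower without miR-107 replicate 1.

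Of 33 genes of the actin cytoskeleton tested 6 were higher and 3 lower, with a median of 0.04. TMOD1, which caps the slow-growing end of actin filaments, was higher by 1.47 ± 0.40 (a call lost without miR-107 replicate 1, M1 replicate 2 or M1 replicate 3), and ACTG1, cytoplasmic gamma actin, by 0.52 ± 0.10. The formin DIAPH1 was lower (-0.53 ± 0.11). The count was 3 higher without miR-107 replicate 2 or M1 replicate 3, and 1 lower without miR-107 replicate 3, while 5 were lower with only the arrays compared. Of 14 integrin genes tested none was called by limma in the fit of all lysates, and 3 were higher and 1 lower at an unadjusted p under 0.05. When only the arrays compared were fitted, 4 integrins were called higher and 1 lower. Of 29 TGF-beta and activin genes tested 4 were higher and 2 lower, led by the SMAD co-repressor SKI (1.11 ± 0.12) and the TGF-beta-induced PMEPA1 (0.70 ± 0.12). The lower count was 4 with the replicate block and 1 without miR-107 replicate 3 or M1 replicate 3, and the higher count was 8 when only the arrays compared were fitted.

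Setting both molecules against the negative control showed on which side each difference lay. These comparisons share the control lysates with each other and their treated arrays with miR-107 minus M1, so their values are only given side by side. With miR-107 the 15 largest falls ran from -3.22 to 0.2 against the control (median -2.24). With M1 they ran from 0.06 to 2.46 (median 0.22). For ASF1B the values were -3.22 for miR-107 and 0.07 for M1. KIF18B was lower by 1.85 with miR-107 (-1.85) and higher by 0.83 with M1 (limma adjusted p = 0.013). DLX2 was at 8.51, 8.30 and 8.44 with miR-107, 9.82, 9.43 and 9.35 with the control and 10.57, 10.43 and 11.16 with M1, so that its control lay between the groups. FAIM2 was at 7.96, 7.98 and 8.01 with miR-107, 8.0, 7.57 and 7.79 with the control and 10.36, 9.94 and 10.44 with M1. Its difference thus stood on the M1 side, with M1 above control by 2.46 ± 0.17.

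With miR-107 the 15 largest rises ran from 0.16 to 3.86 against the control (median 1.91). With M1 they ran from -1.65 to 0.62 (median -0.06), and GPNMB (-0.90), CLEC1A (-1.29) and RAB5B (-1.65) were called lower than control. RAB5B, a GTPase of early endosomes, had the smallest adjusted p named here. It was at 12.15, 12.16 and 12.15 with miR-107, 11.90, 12.04 and 12.05 with the control and 10.42, 10.43 and 10.19 with M1. The miR-107 values were nearly identical and close to the control, and the M1 values stood apart from both. The difference of miR-107 from M1 was 1.81 ± 0.10 (limma adjusted p = 3e-10).

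Further genes whose level departed from the control with M1 while miR-107 stayed within 0.3 of it were picked out after their values had been seen, 5 in each direction, and are given as a description. Lower with M1, beside RAB5B, were DIO2 (-1.79 against control), the deiodinase that activates thyroid hormone, and AP3D1 (-1.49), a subunit of an adaptor of endosomal sorting. PIP5K1C (-1.35), a kinase that makes phosphatidylinositol bisphosphate, and AKR1C3 (-1.32), an aldo-keto reductase, completed that side. AP3D1 was at 10.23, 9.86 and 9.52 with M1, 11.49, 11.38 and 11.24 with miR-107 and 11.49, 11.33 and 11.28 with the control. DIO2 was at 7.04, 6.94 and 7.13 with M1, below all miR-107 values (8.85, 8.51 and 8.84) and all control values (8.36, 9.18 and 8.94). Higher with M1, beside FAIM2, were the neuronal kinesin KIF5C (1.64), the synaptotagmin SYT11 (1.42), the p38 kinase activator MAP2K6 (1.29) and ERLIN1 (1.28), a protein of the endoplasmic reticulum. SYT11 was at 8.97, 8.87 and 9.10 with M1 and at 7.67, 7.5 and 7.73 with miR-107, while the control stood at 7.57, 7.46 and 7.64. The call of miR-107 against M1 for MAP2K6 was lost without miR-107 replicate 1, miR-107 replicate 2, M1 replicate 1 or M1 replicate 3.

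**Figure D3:**
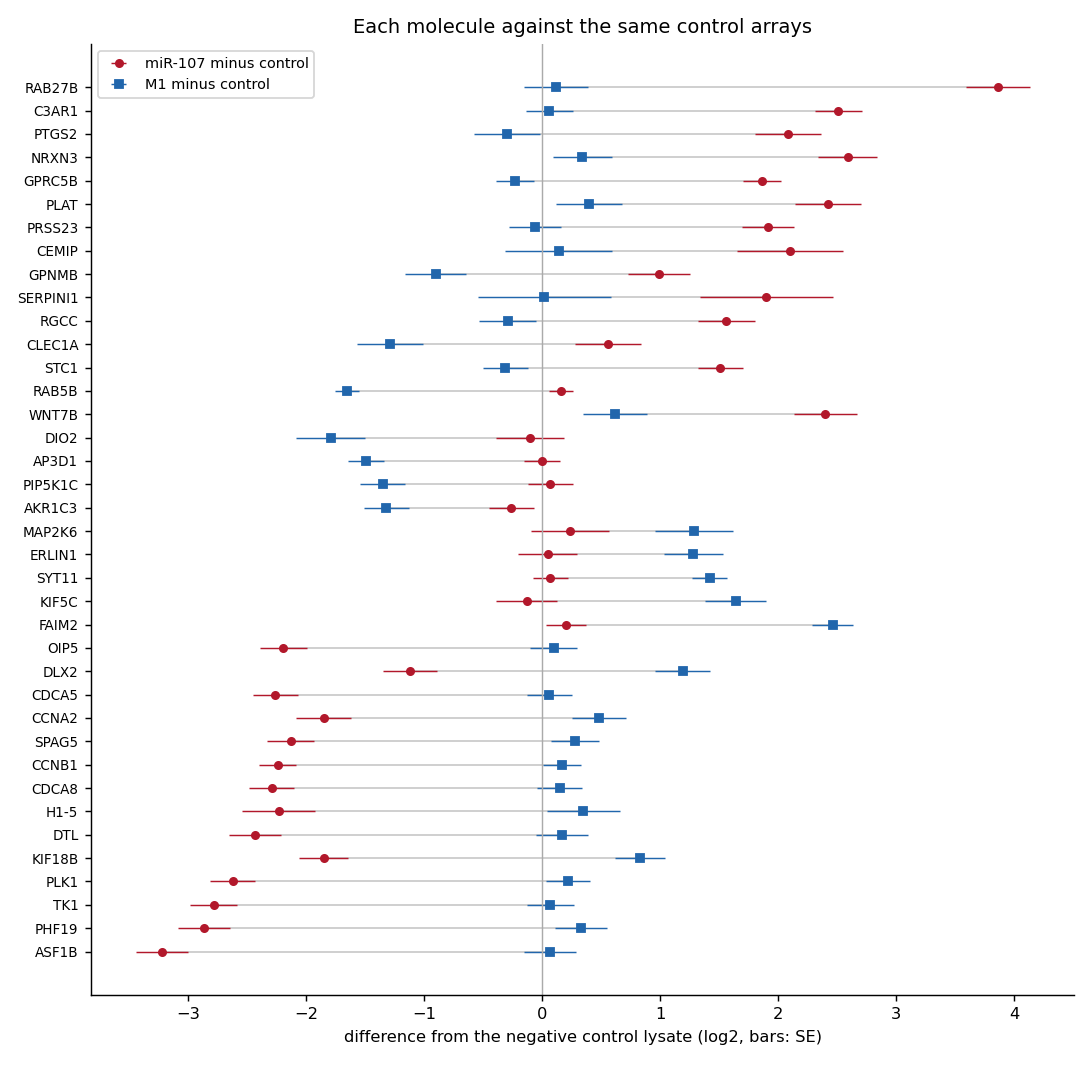
Differences from the negative control lysates (log2, horizontal axis; bars, SE) of miR-107 (circles) and M1 (squares) for the 30 genes with the largest differences and the genes chosen because M1 departs from control. ASF1B to OIP5 lay far below 0 with miR-107 and near 0 with M1, apart from DLX2 and KIF18B, and RAB5B and FAIM2 lay near 0 with miR-107 and at -1.65 and 2.46 with M1.

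Several lists held called members of both kinds. Among vesicle traffic genes (22 tested) 4 were higher and 1 lower, SYT11, and 2 were lower with the replicate block or with only the arrays compared. Beside RAB27B, the fusion protein STX3 was higher by 1.52 ± 0.12 (0.80 with miR-107 and -0.72 with M1 against control), the recycling GTPase RAB11A by 0.75 and RAB3A by 0.95. The call for RAB3A was lost without any array of the 6 except M1 replicate 2. Among insulin and mTOR genes (25 tested) 5 were higher and 2 lower. FBXO32, a ubiquitin ligase of muscle wasting, was higher by 1.77 ± 0.22. DEPTOR, an inhibitor of mTOR, was higher by 1.34 ± 0.24 but below the control with both molecules, by -1.5 with miR-107 and -2.84 with M1. Among 28 lysosomal genes tested 5 were higher, 8 with the replicate block, and 2 without miR-107 replicate 2 or M1 replicate 3. ATP6V0D1, a subunit of the proton pump, was the largest at 0.80 ± 0.17, and GRN was the 1 member lower, a call lost without M1 replicate 1.

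The list of published targets of miR-103 and miR-107 was assembled from general knowledge of the literature, with earlier results of these data known. Of 30 members 24 passed the filter, 8 were called lower and 3 higher, and the median was -0.16 against 0.01 over all genes. With no filter 7 were lower. CDK6, the G1 kinase, averaged 9.14 ± 0.06 (SD) with miR-107 and 10.76 ± 0.16 with M1, lower by 1.63 (-1.63 ± 0.16). CACNA2D1, a calcium channel subunit, averaged 8.84 ± 0.17 and 10.45 ± 0.17, and its difference of -1.62 ± 0.44 was not called without miR-107 replicate 2 or M1 replicate 3. BACE1, the beta-secretase that cuts the amyloid precursor, averaged 10.28 ± 0.05 and 10.94 ± 0.15, a difference of -0.66 ± 0.10 (limma adjusted p = 7.7e-05).

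GRN, the gene of progranulin, averaged 11.45 ± 0.24 and 12.18 ± 0.21, a difference of -0.73 ± 0.18 that was not called without M1 replicate 1. FGF2 (-1.20 ± 0.20), a growth factor, was 0.89 above the control with M1 and -0.31 from it with miR-107. NOTCH2 (-0.53), the hypoxia partner ARNT (-0.48) and the death kinase DAPK1 (-0.32) were the others called lower. CAV1 (caveolin, 0.70 ± 0.15), RCAN1 (0.54) and LATS2 (0.30) were higher. DICER1, the enzyme that cuts miRNA precursors, averaged 8.29 with miR-107 and 9.43 with M1, a difference of -1.14 that was not called. The lower count was 5 without miR-107 replicate 2 or M1 replicate 3, and the higher count 1 without M1 replicate 2.

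Of 29 published targets of miR-15, miR-16 or miR-195 tested, 9 were called lower and 1 higher, with a median of -0.19. UCP2, a mitochondrial carrier (-1.46 ± 0.34), FGFR1 (-0.67) and anillin (ANLN, -2.16), a protein of the cleavage furrow, joined CDK6, CCND3, WEE1, E2F7, FGF2 and PHF19, and JUN was the one higher. Several of these are also members of the cell cycle lists, so the lists are not separate evidence. Of 33 genes of Argonaute and miRNA processing tested, 5 were lower and none higher: TARBP2 (-1.15 ± 0.17), a partner of Dicer, AGO1 (-1.01 ± 0.09), AGO3 (-0.74 ± 0.17), the decapping enzyme DCP2 (-0.97) and the helicase MOV10 (-0.46). The DCP2 call was lost without miR-107 replicate 1 or M1 replicate 3, and that of MOV10 without miR-107 replicate 2 or 3 or M1 replicate 1 or 2. AGO1 averaged 8.35 ± 0.03 (SD) with miR-107 and 9.36 ± 0.13 with M1, while AGO2 averaged 9.19 and 8.99 and was not called. Of 6 genes that encode or host these miRNAs only 3 passed the filter, and PANK2 was lower (-0.42), a call lost without miR-107 replicate 1 or M1 replicate 3. MIR107 itself lay below the filter.

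Other lists held few calls. All 44 ribosomal protein genes tested lay between -0.23 and 0.29 with a median of 0.02, and limma called none (5 higher at an unadjusted p under 0.05, 2 called higher with the replicate block). Among 25 interferon-response genes tested 3 were lower, OAS3 (-1.12 ± 0.10), PSMB9 (-0.45) and BST2 (-0.38), and M1 was above control for all 3 (0.61, 0.21 and 0.32). The PSMB9 call was lost without M1 replicate 1, and 6 members were lower when only the arrays compared were fitted. Of 17 p53 targets tested TP53INP1 was higher by 1.33 ± 0.20 and DDB2 lower (-1.20 ± 0.20), with 2 lower under the block or without M1 replicate 3, and 2 in each direction with only the arrays compared. Of 26 Alzheimer disease genes tested 1 was called in each direction (3.85%, under the 6.96% and 6.51% of all genes), CDK5, a neuronal kinase, higher by 0.99 ± 0.22, and BACE1, lower. In that list 3 members were lower with the block, and 2 without miR-107 replicate 1 or with only the arrays compared.

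Small counts in 4 further lists turned on single arrays. Of 20 apoptosis regulators tested BMF (0.49) and BCL2L11 (0.42) were higher, and neither without miR-107 replicate 2 or 3. Of 20 sterol genes the cholesterol exporter ABCA1 (0.79 ± 0.15) and SREBF2 (0.43) were higher, 5 with the block (1 lower), 4 with only the arrays compared (1 lower), and 1 without miR-107 replicate 1 or M1 replicate 2. In the unfolded protein response (26 tested) CRELD2 (-0.55) was lower, a call lost without any one array, and 2 were higher and 3 lower with the block, 3 lower with only the arrays compared, and 1 higher without M1 replicate 2. In oxidative phosphorylation (32 tested) NDUFA8 (0.39) was higher, a call lost without any miR-107 array or M1 replicate 3, and 4 were higher and 1 lower with the block, 3 and 1 with only the arrays compared, with 2 higher without M1 replicate 2 and 1 lower without M1 replicate 1. Of the neuronal markers NCAM1 (-1.30 ± 0.17), MAP2 (-0.62) and SNAP25 (-0.39) were lower, of which only NCAM1 was called without miR-107 replicate 1, miR-107 replicate 2 or M1 replicate 3. Of the glial markers VIM was higher by 0.31, with 2 higher under the block and none without miR-107 replicate 3, M1 replicate 1 or M1 replicate 2. With only the arrays compared, 1 more member was called in each of the ribosomal (higher), neuronal (higher), YAP target (lower) and Argonaute (higher) lists, and the IL11 call was lost. The part of these marker changes in the other results was not tested.

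M2, the other altered molecule, was set against M1 as a direct test of whether both altered forms differed. Of 11050 genes 1408 were called (12.7%), 738 higher with M2 (6.68%) and 670 lower (6.06%), and the replicate block gave 1141 higher and 938 lower. Without M1 replicate 3, 429 genes were called higher. All 15 of the largest falls were lower with M2 than with M1 (-3.06 to -1.93), and all 15 of the largest rises were higher (1.17 to 3.56). The comparison shares the M1 arrays with miR-107 minus M1, so these signs are no separate evidence. ASF1B was at 8.38, 9.02 and 8.83 with M2, below all M1 values and above all miR-107 values, and RAB27B at 9.83, 10.25 and 10.02, far above M1.

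Between miR-107 and M2 themselves limma called 9 genes (0.0814%), 6 lower (0.0543%) and 3 higher (0.0271%), while 465 had an unadjusted p under 0.05. The spermidine synthase SRM (-0.80), PIEZO1 (-0.80), ZDHHC24 (-0.67), ZDHHC4 (-0.58), PDAP1 (-0.55) and NRBP1 (-0.52) were lower with miR-107, and CXCL14 (0.81), NRP2 (0.70) and TULP3 (0.47) were higher. Of the 30 genes with the largest differences none was called between these 2 molecules, and 4 falls and 1 rise passed an unadjusted p under 0.05. The differences ran from -0.87 to -0.06 among the falls and from -0.14 to 0.61 among the rises. TK1 showed the largest, with 9.14, 9.44 and 9.39 for M2, above all miR-107 values. A p that misses the threshold does not show that the molecules acted alike.

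The series holds a comparison that shares no array with miR-107 or M1, the lysates of miR-103 against those of the negative control. It called 1906 genes (17.2%), 925 higher (8.37%) and 981 lower (8.88%). Of the 719 genes lower with miR-107 than with M1, 485 were called lower with miR-103 (67.5% of the 719 and 49.4% of the 981) and 2 higher. Of the 769 genes higher with miR-107, 274 were called higher with miR-103 (35.6% of the 769 and 29.6% of the 925) and 12 lower. The median miR-103 difference was -0.60 over the first set and 0.28 over the second. Genes are not independent of each other, and both tests used the same spread, pooled over all lysates. The calls are thus not fully separate, and these shares are a description. Of the 15 largest falls 14 were called lower with miR-103 and of the 15 largest rises 12 higher. FAIM2, with 0.38, was the fall not called, and SERPINI1 (1.44), CLEC1A (0.39) and RAB5B (0.14) were the rises not called. PHF19 (-2.84), ASF1B (-2.94) and RAB27B (3.28) were among the largest with miR-103. The number of miR-103 calls itself depended on single arrays: without miR-103 replicate 2, which stood apart, 559 genes were called higher, without control replicate 2, 487, and without control replicate 3, 585.

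The same 2 molecules were also compared in Argonaute IPs, and an interaction term tested whether the difference in total RNA was the same as in Argonaute-bound RNA. Of 11050 genes 767 were called (6.94%), 657 with a higher difference in lysate (5.95%) and 110 with a lower one (0.995%), and the median of this term over all genes was 0.23. The 30 genes below were chosen for their large lysate differences, which favours a smaller difference in the IP, so their interaction terms are given as a description. The IP difference itself was not tested. The share of all genes whose IP replicates lay apart is not given here, so the overlap counts that follow are only a description. Among the 15 largest falls the IP difference had the same sign in all 15 (-2.75 to -0.40), and in 11 the IP replicates of miR-107 lay entirely below those of M1. PLK1 was one of these, with 5.26, 5.40 and 4.32 in the IP with miR-107 and 7.05, 7.07 and 8.51 with M1. In SPAG5, CCNA2, OIP5 and FAIM2 the IP replicates overlapped. OIP5 was at 3.28, 3.71 and 2.93 against 3.35, 3.71 and 4.07, and its interaction was -1.88 (limma adjusted p = 0.00014).

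Low IP values limited the comparison of several rises. Of the 15 largest rises 13 had the same sign in the IP, but the IP replicates overlapped in 8 and lay apart in the same direction in 6. Here too no share over all genes stands beside these counts. In 11 of them both IP means were under 5.26, the level of the filter, which they passed through their lysate values. This held for 8 of the 10 with a called interaction. That level was set over IP and lysate arrays together and lies above the mean of every IP array. In RAB27B, C3AR1, GPNMB, SERPINI1 and CLEC1A both IP means were below the lowest mean of any IP array (3.61), which held for 4 of those 10. RAB27B was at 2.80, 3.56 and 3.05 in the IP with miR-107 and at 3.03, 2.74 and 2.63 with M1, levels at which an IP difference may not be detectable. RAB5B, measured well above that level, was at 7.08, 6.60 and 6.92 in the IP with miR-107 and at 7.09, 7.30 and 7.10 with M1, while all its lysate values were higher with miR-107. Values of the IP arrays lay lower overall (array means of 3.61 to 3.65 against 7.11 to 7.17). The interaction cancels an added offset between fractions but not a difference in scale, which was not tested.

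**Figure D4:**
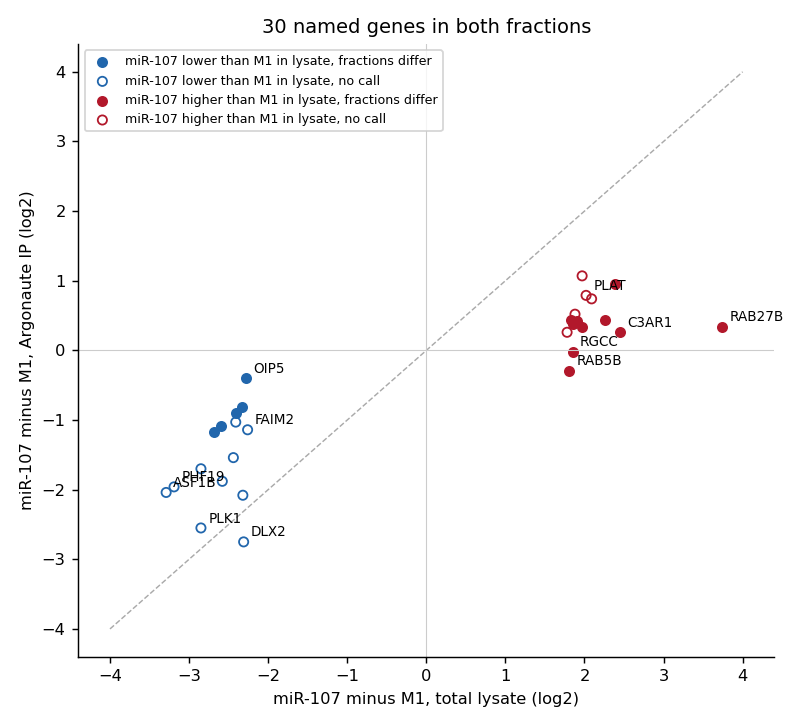
Log2 difference of miR-107 minus M1 in total lysate (horizontal axis) against that in Argonaute IP (vertical axis) for the 30 genes with the largest lysate differences; filled points had a called interaction, and the dashed line marks equal differences. The 15 falls lay between -2.75 and -0.40 in the IP, and the 15 rises between -0.30 and 1.07.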

How the data were processed

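H4 RNA was hybridised to Affymetrix gene arrays. Per the submitters' processing notes, the authors summarised them with RMA in Affymetrix Expression Console 1.1. The deposited values were read as log2, although the base is not stated in the sources used here, so every fold rests on that reading. IP and lysate arrays appear to have been normalized apart.

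Of 33297 probe sets, 19460 had 1 gene symbol in the platform annotation, 1754 several and 12083 none. This gave 18417 genes, with the probe set of highest mean kept for 769 genes that had several. A filter removed the 40% of genes with the lowest mean (under 5.26) across the 54 arrays. Background probes were not used here, and precision is limited by the number of arrays.

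The tests used limma 3.58.1 under R 4.3.3, with 1 fit of the 27 lysates by group and another of the 54 arrays for the interaction, with Benjamini-Hochberg adjustment over 11050 genes. Errors beside differences are the fit's SE, which pools the spread of all lysate groups, and those beside means are SDs over 3 arrays. Named are the 15 largest rises and falls among called genes without overlap of replicates, and list members. Members and lists were chosen with earlier results of these data known. Deviations of same-numbered miR-103 and control lysates correlated at -0.18, -0.37 and 0.35. Same-numbered miR-107 and M1 lysates deviated together (correlations 0.63, 0.53 and 0.54), and their descriptions share a code. A fit with the replicate number as a block was therefore an alternative. The others were a fit of only the arrays compared, other filters, cyclic loess, trend and robust settings, array weights, means of probe sets, each array left out and, chosen after seeing the data, the lysates that stand apart left out. The script was tested on simulated data. Seed sites in transcripts were not analysed here.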

Additional observations from a re-analysis of the deposited data

Results flagged for a closer look

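The lysate-minus-IP interaction in limma was called for 15 of the 30 genes with the largest lysate differences. These genes were chosen for those differences, which favours a smaller value in the IP, so the values are a description. In 3 of the 5 falls and 8 of the 10 rises concerned both IP means were under 5.26, the filter level set over both fractions. In 1 of the falls and 4 of the rises both were below 3.61, the lowest mean of any IP array. Among genes lower with miR-107 in lysate, the term was -1.5 for KIF18B, -1.52 for DTL, -1.51 for CCNB1, -1.51 for CCNA2 and -1.88 for OIP5. The IP difference of each had the same sign, with overlapping IP replicates in CCNA2 and OIP5. Among genes higher with miR-107, it was 3.41 for RAB27B, 2.19 for C3AR1, 1.42 for PTGS2, 1.83 for NRXN3 and 1.62 for CEMIP. It was 1.48 for GPNMB, 1.87 for RGCC, 1.47 for CLEC1A, 1.4 for STC1 and 2.1 for RAB5B, and RGCC and RAB5B had an IP difference below 0 (-0.02 and -0.30). The median of this term over all genes was 0.23.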

How the results depend on the processing

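For miR-107 minus M1, none of the 30 named genes or 192 called list members changed sign in the 15 settings tried. The 15 largest falls were called in all of them, 14 of the 15 largest rises too, and 140 of the list members, with 52 lost somewhere. Higher calls did not always outnumber lower ones: there were 847 higher and 946 lower with no filter, 754 and 832 with cyclic loess, 563 and 599 without miR-107 replicate 1 and 490 and 519 without M1 replicate 3. The counts were 1244 higher and 1109 lower when only the arrays compared were fitted, 2343 and 1970 with array weights, and 1449 and 1257 without the arrays that stand apart. Leaving out 1 array gave 490 to 679 higher and 519 to 612 lower. The pairing of replicates was taken up by a replicate block, which gave 1129 higher and 988 lower and ended no call of a named gene or list member. For M2 minus M1 the counts were 1129 and 1010 with only the arrays compared, 1141 higher with the block, 2445 and 1734 with weights, and 1616 and 1256 without the arrays that stand apart. With 1 array left out they were 429 to 628 and 445 to 575 (445 lower without M2 replicate 2). For miR-103 minus control they were 521 higher with only the arrays compared, 1462 higher with the block, 2871 and 2718 with weights, and 1492 lower without the arrays that stand apart. With 1 array left out they were 487 to 807 and 695 to 848. For the interaction, 346 were lower with no filter and 44 with the lowest 60% left out. Cyclic loess gave 428 higher and 251 lower, and weights 2994 and 970. A list's size after the filter, and fewer arrays, change these counts by construction, and the other causes were not tested.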
